A study of Mus musculus with 18 samples.

Results

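The genes described here are 32 mouse genes of the response to endoplasmic reticulum (ER) stress, taken as a named list and reported in 2 arms of 16. The list was chosen with earlier results of these data known. Counts of members set beside shares of all genes are therefore descriptive and test no enrichment. The ATF4 arm holds Atf4 and genes that it is known to regulate, and the ER chaperone arm holds the folding and degradation machinery of the ER with its regulator Xbp1. All 32 symbols were found among the 54752 genes of the count table, and all 32 passed the filter on low counts in each of the 8 comparisons. RNA was sequenced from 6 groups of 3 libraries. HM-1 tumors labelled Cd276KO and control HM-1 tumors were taken from B6C3F1 mice 10 days after intradermal inoculation. ID8 cells labelled Cd276KO and ID8 control cells, of the C57BL6 strain, were grown in RPMI 1640 medium. HM-1 cells labelled Cd276KO and HM-1 control cells, of the B6C3F1 strain, were grown in MEM alpha medium. HM-1 and ID8 are mouse ovarian cancer cell lines, and Cd276 encodes B7-H3, a checkpoint molecule related to the B7 ligands of T cells. The labels do not give the knockout method, the number of clones or what the control cells carry.

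When unfolded proteins build up in the ER, the kinase PERK phosphorylates the translation factor eIF2alpha, general translation slows, and the ATF4 protein is made from an mRNA that is otherwise translated poorly. Lack of amino acids reaches the same factor through another kinase, so ATF4 targets include amino acid transporters and the enzymes of asparagine, serine and glycine synthesis as well as stress regulators. The sensors IRE1 and ATF6 act in parallel, through splicing of Xbp1 mRNA and cleavage of ATF6, and raise chaperones, protein disulfide isomerases and degradation factors. Because ATF4 is set largely at translation and XBP1 by splicing, gene counts of Atf4 and Xbp1 measure neither active protein.

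The targeted gene was examined first. Cd276 had 47.2, 47.7 and 44.8 CPM (counts per 1000000 of the library's total count) in HM-1 cells labelled Cd276KO, against 74.2, 93.5 and 91.5 CPM in HM-1 control cells, a log2 fold change of -0.85 ± 0.10, adjusted p = 0.00146 by edgeR's quasi-likelihood test with Benjamini-Hochberg adjustment over all genes. Here and in parentheses after 2 groups' levels, the error of a log2 fold change is its SE. In ID8 cells it had 18.3, 18.8 and 21.0 CPM in cells labelled Cd276KO, against 21.1, 21.1 and 20.6 CPM in controls, with overlapping groups and a log2 fold change of -0.038 ± 0.079, adjusted p = 0.692. In tumors it had 73.2, 97.2 and 89.5 CPM in those labelled Cd276KO, against 142, 107 and 116 CPM in controls (-0.45 ± 0.14, adjusted p = 0.105). Counts over a whole gene need not show a small deletion. Library totals ranged from 17349082 to 30959773 counts. HM-1 control library 1 stood apart from its group, with a chi-square value per gene of 65.0 and 63.9 against the other 2 control libraries, which differed from each other by 1.57, close to the 1 of sampling noise. Control tumor 3 stood apart too, with 134 and 81.3 against the other control tumors, which differed by 41.1. Of the epithelial markers, Krt8, Krt18 and Krt19 were present in all 18 libraries and Epcam was at 0 in all 6 libraries of HM-1 cells.

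The promoters of the members show how the 2 arms differ in sequence. RefSeq promoter windows (GRCm38.p6, 250 bases before to 50 after an annotated start) were found for 16 of 16 genes of the ATF4 arm and 14 of 16 of the ER chaperone arm; Hyou1 and Manf had none. The ER stress response element, CCAAT followed after 9 bases by CCACG on either strand, lay in windows of 6 of the 14 matched ER chaperone genes (42.9%) and of 0 ATF4 arm genes, against 0.137% of 27025 genes in the table. The C/EBP-ATF response element, TGATGNAA on either strand, lay in windows of 6 of 16 ATF4 arm genes (37.5%) and of 1 ER chaperone gene, Herpud1, against 4.51% of all genes. The other XBP1 element searched, TGACGTGG, lay in 0 members and 0.714% of all genes. These elements were first described in promoters of such genes, so the shares are a description of known members. The ER stress elements are shown first, as the sequence feature of the chaperone arm, 5′ to 3′ on the gene's strand with the match in capitals and 6 flanking bases in lower case. Matches in Calr and Creld2 read on the opposite strand, and Hsp90b1 held 1 on each strand, of which the same-strand match is shown.
Hspa5: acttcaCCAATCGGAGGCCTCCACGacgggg
Hsp90b1: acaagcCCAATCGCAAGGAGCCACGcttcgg
Pdia6: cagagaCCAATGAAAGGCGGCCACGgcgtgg
Dnajc3: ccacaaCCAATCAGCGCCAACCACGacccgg
Calr: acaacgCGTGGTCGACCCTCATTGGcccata
Creld2: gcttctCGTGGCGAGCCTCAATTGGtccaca

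The matches to the C/EBP-ATF element are shown for the ATF4 arm because the genes that hold them include those with the largest changes in ID8 cells. Ddit4 (-1.25 on the log2 scale in Cd276KO ID8 cells) and Ddit3 (-1.20) held no match, while Asns with a match changed by -0.45. A link between match and change was not tested. Slc7a11 held 2, shown as a and b, and the match of Trib3 began 15 bases into the transcript while the others lay before the start.
Vldlr: caatagTTGCATCAgcgctc
Nupr1: gccagaTTGCATCAgacagg
Trib3: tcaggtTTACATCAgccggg
Chac1: ctgccgTTGCATCActcctg
Asns: gccacaTGATGAAActtccc
Slc7a11 a: tgtggcTGATGCAAacctgg
Slc7a11 b: gagaatTTGCATCAtcatgc

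The 250 bases before the start are given for Vldlr and Nupr1, which fell most in ID8 cells, and for Calr, which had the largest called rise of the chaperone arm in HM-1 cells, with the matches above in capitals. The Vldlr window is the one of its 2 annotated windows that holds a match.
Vldlr, chr19:27216770-27217019, plus strand: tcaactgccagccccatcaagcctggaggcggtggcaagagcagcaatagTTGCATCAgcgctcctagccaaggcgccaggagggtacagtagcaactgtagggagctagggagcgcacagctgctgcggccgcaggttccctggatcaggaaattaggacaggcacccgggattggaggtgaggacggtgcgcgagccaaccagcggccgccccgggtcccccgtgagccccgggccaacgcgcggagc
Nupr1, chr7:126625471-126625720, minus strand: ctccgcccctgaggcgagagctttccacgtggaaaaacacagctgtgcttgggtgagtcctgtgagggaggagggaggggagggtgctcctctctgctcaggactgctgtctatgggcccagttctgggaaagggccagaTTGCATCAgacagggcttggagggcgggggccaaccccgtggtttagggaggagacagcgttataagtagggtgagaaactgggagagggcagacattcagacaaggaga
Calr, chr8:84846932-84847181, minus strand: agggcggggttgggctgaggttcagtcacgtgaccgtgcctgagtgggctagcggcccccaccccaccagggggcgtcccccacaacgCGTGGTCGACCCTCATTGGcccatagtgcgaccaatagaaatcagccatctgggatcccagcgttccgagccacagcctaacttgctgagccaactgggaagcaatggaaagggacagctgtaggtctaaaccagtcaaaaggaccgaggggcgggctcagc

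On a per-length scale (TPM, transcripts per 1000000, computed here from the counts and the exonic length of each gene), the chaperone arm was the more abundant of the 2 in every library. Its summed level was 6730.4, 6349 and 6655 TPM in Cd276KO tumors, 6395, 5835 and 5242 in control tumors, 7469.8, 7736 and 7341 in Cd276KO ID8 cells, 7624, 7859.7 and 7470.5 in control ID8 cells, 5959, 5670.1 and 5823 in Cd276KO HM-1 cells and 4725, 4679.7 and 4637 in control HM-1 cells. The ATF4 arm summed to 1935, 1660.5 and 1765 TPM in Cd276KO tumors, 1767, 1963 and 1508 in control tumors, 3303, 3435 and 3342 in Cd276KO ID8 cells, 4122, 4234 and 4199.9 in control ID8 cells, 1935, 1984 and 1919.7 in Cd276KO HM-1 cells and 2021, 1981 and 1989 in control HM-1 cells. In summed TPM, then, Cd276KO lay below control for the ATF4 arm in ID8 cells and above control for the chaperone arm in HM-1 cells, in both cases without overlap, and the tumor groups overlapped for both arms. Summed CPM, which weight long genes more, gave 2 further separations, neither of them tested. The chaperone arm summed to 8265, 8404 and 8315 CPM in Cd276KO ID8 cells, against 7948, 8031 and 7821 CPM in control ID8 cells, where the TPM groups overlapped. The ATF4 arm summed to 1773, 1819.6 and 1773 CPM in Cd276KO HM-1 cells, against 2051, 1828 and 1834 CPM in control HM-1 cells, where the TPM groups overlapped as well. Within the ATF4 arm of control HM-1 cells, the serine synthesis enzyme Phgdh (503 ± 34.9 TPM, mean ± SD, n = 3) and Atf4 itself (484 ± 38.9) were the most abundant, and their ranges overlapped. Nupr1 (3.35 ± 0.712) and Chac1 (5.19 ± 0.281) were the least abundant. In the chaperone arm of the same cells the disulfide isomerase Pdia3 (935 ± 54.7 TPM) led, followed by the ER form of HSP90, Hsp90b1 (763 ± 21.3), the ER HSP70 Hspa5 (669.7 ± 6.49) and calreticulin, Calr (604 ± 10.4), with no overlap between neighbours in that order. The co-chaperone Dnajb9 (30.8 ± 0.956) was the lowest.

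**Figure D1:**
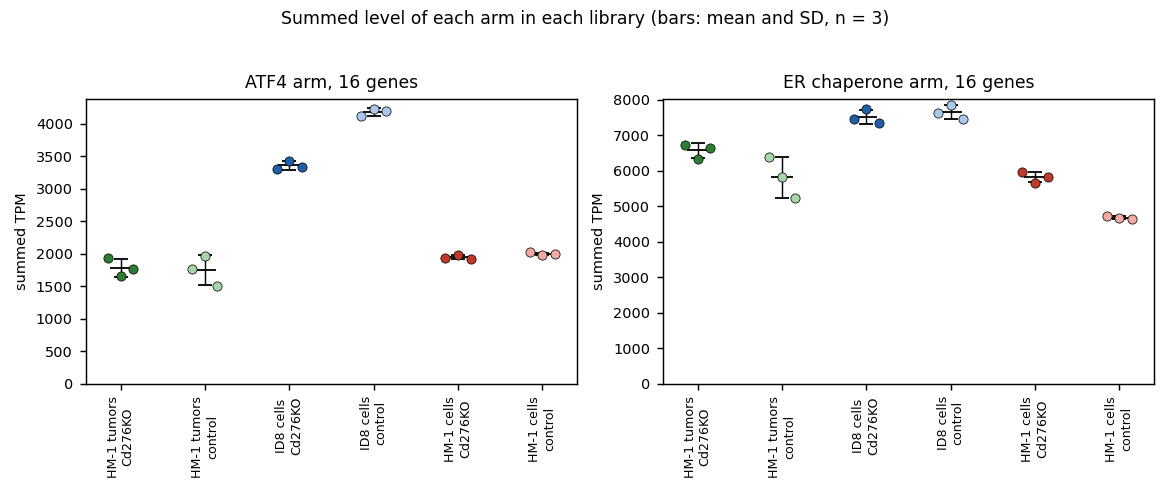
Summed level of the ATF4 arm and of the ER chaperone arm in TPM (vertical axes) in each of the 18 libraries, by group, with points for libraries and bars for mean and SD (n = 3). The ATF4 arm was highest in ID8 cells, where Cd276KO libraries lay below controls, and the chaperone arm was lowest in HM-1 control cells, below HM-1 Cd276KO cells.

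In ID8 cells labelled Cd276KO, 11 of 16 ATF4 arm genes fell and 0 rose, by an adjusted p under 0.05 in edgeR; of all 12932 genes tested, 31.3% fell, 29.4% rose and 60.7% were called in all. Of the 11, 6 fell at least 2-fold, against 8.07% of all genes: Vldlr, Nupr1, Trib3, Chac1, Ddit4 and Ddit3. The median log2 fold change over the arm was -0.54, against -0.0083 over all genes tested. The 5 that were not called were Atf4, Psat1, Phgdh, Shmt2 and Slc3a2. Cd276 itself was not called lower in these libraries, so the comparison is between groups as labelled.

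Vldlr, the very low density lipoprotein receptor, had 8.44, 8.05 and 11.8 CPM in Cd276KO ID8 cells, against 41.0, 42.8 and 38.2 CPM in control ID8 cells. All 3 Cd276KO libraries lay far below all controls, a log2 fold change of -2.04 ± 0.11, adjusted p = 6.18e-12. Nupr1, a small chromatin-associated stress protein, had 14.0, 14.5 and 13.2 CPM, against 39.9, 41.3 and 39.4 CPM in controls (-1.45 ± 0.074, adjusted p = 7.32e-14). Trib3, a pseudokinase that dampens ATF4 signalling, had 29.9, 29.2 and 31.4 CPM, against 83.7, 83.5 and 84.4 CPM in controls (-1.40 ± 0.062, adjusted p = 6.59e-15). The C/EBP-ATF matches of these 3 genes are printed above. Ddit3, which encodes the stress transcription factor CHOP (ENSMUSG00000025408.15, chr10:127290774-127296288, plus strand, GRCm38), had 10.6, 9.15 and 10.2 CPM, against 24.6, 23.7 and 24.6 CPM in controls (-1.20 ± 0.085, adjusted p = 2.68e-11). Chac1, a glutathione-degrading enzyme, had 21.6, 20.9 and 22.6 CPM, against 52.8, 54.8 and 58.5 CPM in controls (-1.28 ± 0.071, adjusted p = 3.27e-13). Ddit4, an inhibitor of mTORC1, had 46.0, 43.1 and 42.2 CPM, against 111, 99.3 and 118 CPM in controls (-1.25 ± 0.069, adjusted p = 4.06e-13). The groups of all 6 genes were separate, with no Cd276KO library reaching the lowest control.

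The other 5 called genes of the arm fell by less than 2-fold. Slc7a11, the cystine and glutamate exchanger xCT, had 20.5, 20.1 and 16.8 CPM in Cd276KO ID8 cells, against 38.3, 34.2 and 28.1 CPM in controls (-0.73 ± 0.10, adjusted p = 1.02e-05). Sesn2, a leucine sensor upstream of mTORC1, changed by -0.64 ± 0.064, adjusted p = 1.06e-08, Asns, asparagine synthetase, by -0.45 ± 0.059, adjusted p = 7.36e-07, and Ppp1r15a, the phosphatase subunit GADD34 that reverses eIF2alpha phosphorylation, by -0.35 ± 0.095, adjusted p = 0.00293. Mthfd2, a mitochondrial folate enzyme, fell least (-0.19 ± 0.060, adjusted p = 0.00842), and was not called without Cd276KO library 1 (-0.13, adjusted p = 0.0819). In a fit over all 18 libraries the calls of Mthfd2 (adjusted p = 0.520) and Ppp1r15a (0.155) were lost. Atf4 itself (ENSMUSG00000042406.8, chr15:80255184-80257541, plus strand) had 771, 753 and 802 CPM, against 789.8, 823 and 805 CPM in controls, overlapping groups with a log2 fold change of 0.020 ± 0.056, adjusted p = 0.771. CPM are per library total while fold changes use TMM scaling, so small ones can differ in sign from the CPM. Psat1, Phgdh and Shmt2, the serine and glycine enzymes, and Slc3a2, the heavy chain of amino acid exchangers, had log2 fold changes of 0.049, 0.027, 0.056 and 0.00032 and were not called.

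**Figure D2:**
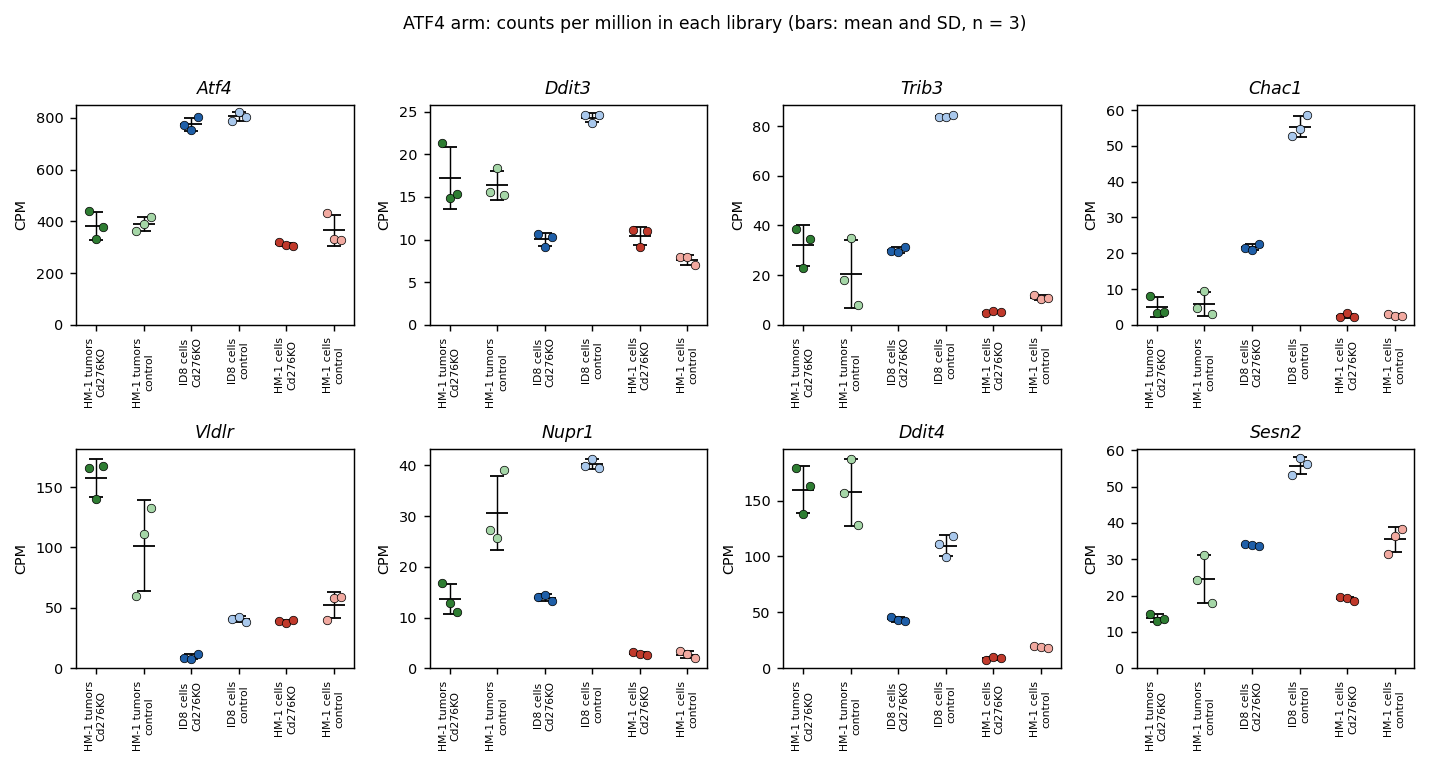
CPM (vertical axes, from 0) of 8 ATF4 arm genes in each library of the 6 groups, with points for libraries and bars for mean and SD (n = 3). Ddit3, Trib3, Chac1, Vldlr, Nupr1, Ddit4 and Sesn2 were lower in Cd276KO than in control ID8 cells in all libraries, while the Atf4 groups overlapped there.

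The chaperone arm had mostly small changes in ID8 cells. Of 16 genes 5 rose, a share near the 29.4% of all genes, and 2 fell, a share under the 31.3% of all genes, and the median log2 fold change was 0.098. Manf, a secreted ER stress survival factor (ENSMUSG00000032575.16, chr9:106838312-106891979, minus strand), had 312, 302 and 297 CPM in Cd276KO cells, against 212, 194 and 213 CPM in control cells. Its groups were separate, and at 0.63 ± 0.058, adjusted p = 2.14e-09 it was the only member of this arm beyond 0.5 on the log2 scale. Pdia3 had 1454, 1456 and 1442 CPM, against 1306, 1289 and 1257 CPM in controls (0.25 ± 0.056, adjusted p = 0.000479), and Creld2, an ER disulfide isomerase of unusual structure, had 112, 108 and 123 CPM, against 102, 102 and 112 CPM (0.19 ± 0.062, adjusted p = 0.0096), with overlapping groups. Hspa5, the ER chaperone BiP (ENSMUSG00000026864.13, chr2:34771970-34777547, plus strand), had 1873, 1895 and 1893 CPM, against 1731, 1796 and 1696 CPM in controls, a small but separate shift of 0.19 ± 0.057, adjusted p = 0.00543. Hyou1, an ER chaperone of the HSP110 family, rose as well (0.18 ± 0.055, adjusted p = 0.00817). Dnajb11, a co-chaperone of BiP, fell the most, with 108, 111 and 118 CPM in Cd276KO cells, against 154, 159 and 159 CPM in controls (-0.41 ± 0.056, adjusted p = 1.49e-06). Sdf2l1, a stabiliser of the BiP cycle, had 47.8, 48.5 and 44.9 CPM, against 57.7, 51.5 and 62.2 CPM (-0.20 ± 0.072, adjusted p = 0.0188). Xbp1 (ENSMUSG00000020484.18, chr11:5520659-5525893, plus strand) had 206, 219 and 233 CPM, against 214, 230.2 and 222 CPM, overlapping groups and a log2 fold change of 0.057 ± 0.059, adjusted p = 0.409. The Creld2 call was lost without control library 1 or Cd276KO library 3 (adjusted p = 0.0552 and 0.0554), and the Sdf2l1 call without control 1, control 3 or Cd276KO 3 (adjusted p from 0.0549 to 0.125). In a fit over all 18 libraries the calls of Hspa5 (adjusted p = 0.155), Hyou1 (0.111), Pdia3 (0.0905), Creld2 (0.414) and Sdf2l1 (0.369) were lost, which left Manf as the 1 gene called higher.

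In HM-1 cells labelled Cd276KO the ATF4 arm split. Of its 16 genes 4 rose and 3 fell, against 11.6% and 16.1% of the 12457 genes tested, of which 27.7% were called in all. The share of the arm that fell was near that of all genes. The median was -0.080, against -0.013 over all genes. Ddit4 had 7.54, 10.2 and 8.82 CPM in Cd276KO cells, against 19.7, 19.0 and 17.96 CPM in control cells (-1.05 ± 0.13, adjusted p = 0.00181), and Trib3 had 4.92, 5.74 and 5.11 CPM, against 11.97, 10.3 and 10.6 CPM (-1.02 ± 0.12, adjusted p = 0.00132). Both fell at least 2-fold, as 5.73% of all genes did. Sesn2 had 19.5, 19.3 and 18.6 CPM, against 31.5, 36.3 and 38.4 CPM in controls (-0.85 ± 0.091, adjusted p = 0.000933). None of these 3 groups overlapped. Among the genes that rose, Ppp1r15a (ENSMUSG00000040435.12, chr7:45522916-45526268, minus strand) had 37.3, 39.6 and 35.8 CPM in Cd276KO cells, against 24.2, 21.8 and 22.4 CPM in controls (0.76 ± 0.087, adjusted p = 0.00121). Ddit3 had 11.1, 9.17 and 10.98 CPM, against 7.997, 7.93 and 6.97 CPM (0.49 ± 0.12, adjusted p = 0.025), and Mthfd2 had 95.9, 97.3 and 98.4 CPM, against 75.9, 71.8 and 72.0 CPM (0.45 ± 0.073, adjusted p = 0.00515). The groups of these 3 were separate too. Slc3a2 rose as well (0.44 ± 0.096, adjusted p = 0.0157). Atf4 had 318, 310 and 305 CPM in Cd276KO cells, against 433, 332 and 329 CPM in controls, separate groups that did not pass the threshold (-0.19 ± 0.13, adjusted p = 0.3). Control library 1 was the highest of all 6, and without it the log2 fold change was -0.035.

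The chaperone arm rose in part in HM-1 cells, with 4 of 16 genes called higher and 0 lower, against 11.6% and 16.1% of all genes tested. Calr, a lectin-like calcium-binding chaperone (ENSMUSG00000003814.8, chr8:84841850-84846934, minus strand), had 833, 827 and 806 CPM in Cd276KO cells, against 593, 538 and 527 CPM in control cells (0.61 ± 0.083, adjusted p = 0.00258). Pdia4, a disulfide isomerase, had 266, 262 and 265 CPM, against 179, 192 and 196 CPM (0.53 ± 0.068, adjusted p = 0.00202). Hsp90b1 had 1330, 1225 and 1332 CPM, against 1032, 948 and 949 CPM (0.45 ± 0.084, adjusted p = 0.00906), and Dnajc3, a co-chaperone that inhibits eIF2alpha kinases, had 159, 147 and 154 CPM, against 106, 125 and 128 CPM (0.40 ± 0.090, adjusted p = 0.0179). The groups of these 4 genes were separate. The remaining 12 genes were not called, and their log2 fold changes ran between -0.45 for Sdf2l1 and 0.40 for Sel1l, an adaptor of ER-associated degradation. Without control library 1 these were -0.27 for Sdf2l1 (adjusted p = 0.000325) and 0.23 for Sel1l (adjusted p = 5.85e-06), both then called. Hspa5 had 942, 899 and 918 CPM in Cd276KO cells, against 994, 856 and 854 CPM in controls (0.068 ± 0.094, adjusted p = 0.612). Xbp1 had 92.7, 89.1 and 88.1 CPM, against 119, 100.1 and 99.2 CPM (-0.20 ± 0.10, adjusted p = 0.183). Hsp90b1 shares exonic bases with 3 other genes, at most 415 of its 4032 with any 1, an opposite-strand pseudogene of at most 257 counts. The strand setting is not given in the sources used here, so how far this sharing changed the Hsp90b1 value is not known.

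These HM-1 counts depended on 1 library. Without HM-1 control library 1, edgeR called 25 of the 32 members in place of 11, with 5 ATF4 arm genes higher and 5 lower and 13 chaperone genes higher and 2 lower. Over all genes 59.1% were then called, 28.6% higher and 30.4% lower, with the spread of the control group taken from 2 nearly identical libraries. Genes gained included Vldlr (-0.54, adjusted p = 1.6e-11), Pdia6, a disulfide isomerase (0.46, adjusted p = 6.73e-14), Pdia3 (0.35, adjusted p = 2.9e-10) and Hspa5 (0.16, adjusted p = 0.000295). Leaving out Cd276KO library 1 or 3 instead gave 7 calls each, while the calls over all genes went from 3452 to 1741 and 1725. Of the 11 calls, 6 held under every alternative run. The Ddit3 call was lost without control 2 or 3 or Cd276KO 1 or 3 (adjusted p from 0.0603 to 0.105) with a replicate block (0.0643) and under upper-quartile scaling (0.0506), and the Slc3a2 call without any library other than control 1 (0.0529 to 0.0766). Dnajc3 was lost without any Cd276KO library (0.0591 to 0.0847) and with a replicate block (0.0559), and Hsp90b1 without Cd276KO 1 or 3 (0.0531 and 0.0560). The Mthfd2 call was lost in a fit over all 18 libraries (0.107).

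**Figure D3:**
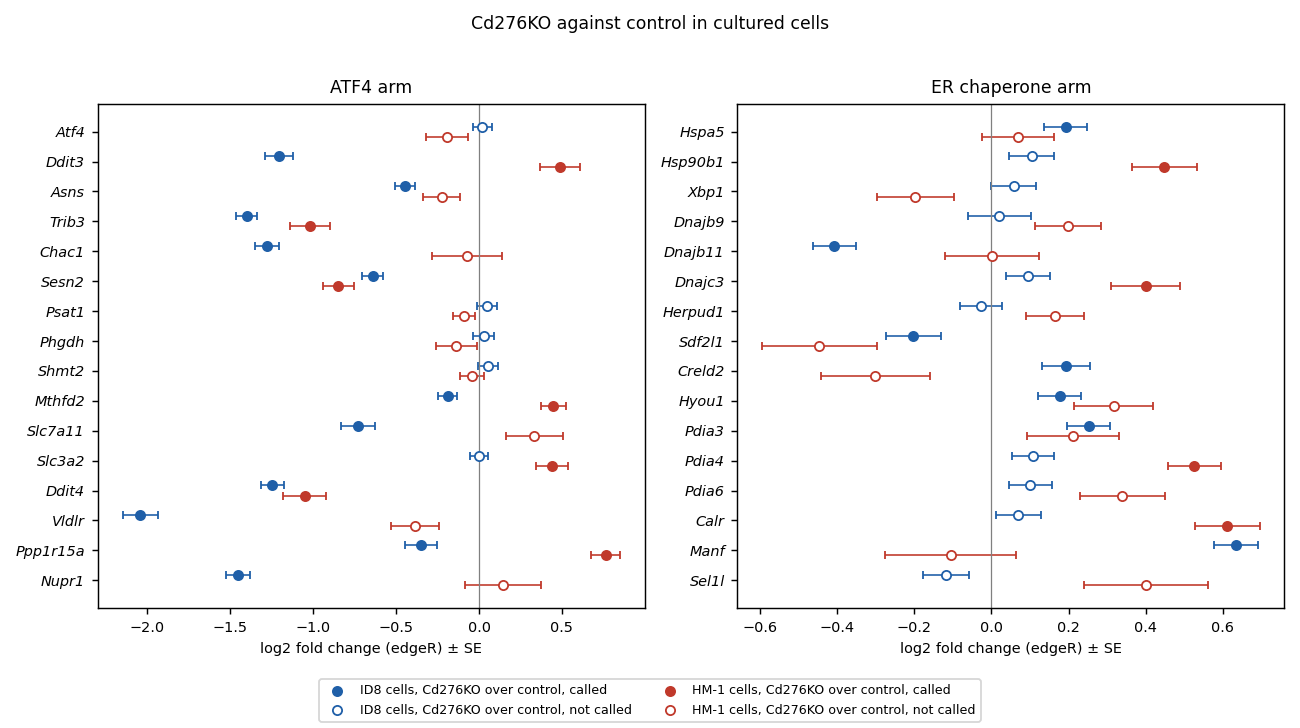
Log2 fold change of Cd276KO over control with its SE (horizontal axes) for each gene of the ATF4 arm and of the chaperone arm, in ID8 cells and in HM-1 cells, with filled points for called genes. Ddit3, Mthfd2 and Ppp1r15a lie right of 0 in HM-1 cells and left of 0 in ID8 cells, and Ddit4, Sesn2 and Trib3 lie left of 0 in both.

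Between the lines, 6 ATF4 arm genes were called in both, which is 6 of the 11 called in ID8 cells and 6 of the 7 called in HM-1 cells. Of the 11386 genes tested in both lines, 16.8% were called in both, 5.25% lower in both and 4.28% higher in HM-1 and lower in ID8 cells. Of the 6, Ddit4, Sesn2 and Trib3 fell in both, while Ddit3, Mthfd2 and Ppp1r15a fell in ID8 cells and rose in HM-1 cells. The HM-1 call of Ddit3 did not hold under every omission, as given above. Without HM-1 control library 1, 5 ATF4 arm genes were called higher and 5 lower in HM-1 cells, against 28.6% and 30.4% of all genes. Vldlr was then called lower in both lines. By these calls 0 of 16 chaperone genes were called in both lines. That count depended on HM-1 control library 1. Without it, 13 chaperone genes were called higher and 2 lower in HM-1 cells, against 59.1% of all genes called. Most of the 7 chaperone genes called in ID8 cells, among them Hspa5, Pdia3 and Sdf2l1, were then called in both lines. The share of all genes called in both lines without this library was not computed. The difference of the knockout effects was tested as an interaction over 12 libraries (ID8 effect minus HM-1 effect). Cd276 was not called lower in the ID8 libraries labelled Cd276KO, so this is a difference between labelled groups. In the ATF4 arm 9 genes were lower in this difference and 0 higher, 6 of them beyond 2-fold, and in the chaperone arm 6 were lower and 2 higher. Over all 14208 genes, 20.7% were lower, 19.8% higher and 40.4% called in all, and 8.82% were lower beyond 2-fold. Of the members, Ddit3 had the largest difference, with a log2 fold change of -1.20 in ID8 cells against 0.49 in HM-1 cells, a difference of -1.71 ± 0.14, adjusted p = 1.27e-06. Vldlr (-2.04 in ID8 cells against -0.39 in HM-1 cells) differed by -1.66 ± 0.21, adjusted p = 4.24e-05. In the chaperone arm, Manf differed by 0.73 ± 0.18, adjusted p = 0.00615 and Creld2 by 0.48 ± 0.16, adjusted p = 0.0261, while Calr differed by -0.55 ± 0.096, adjusted p = 0.000569 and Sel1l by -0.53 ± 0.18, adjusted p = 0.0299. Sel1l had 101, 109 and 106 CPM in Cd276KO ID8 cells, against 119.7, 129 and 113 CPM in control ID8 cells, and 122, 119 and 121 CPM in Cd276KO HM-1 cells, against 69.0, 106 and 107 CPM in control HM-1 cells. For the genes that fell in both lines the difference was -0.40 ± 0.12, adjusted p = 0.019 for Trib3, -0.21 ± 0.15, adjusted p = 0.3 for Ddit4 and 0.20 ± 0.11, adjusted p = 0.169 for Sesn2. Only Trib3 of the 3 was called, and it was not called without HM-1 Cd276KO library 2 (-0.32, adjusted p = 0.0722), under upper-quartile scaling (0.0597), with no filter (0.0925) or in a fit over all 18 libraries (0.656). Creld2 was lost without HM-1 Cd276KO 1 or 2, ID8 control 1 or 2 or ID8 Cd276KO 3 (0.0535 to 0.0677) and in the fit over all 18 libraries (0.117), and Sel1l without any HM-1 Cd276KO library, ID8 control 1 or 2 or ID8 Cd276KO 1 or 3 (0.0528 to 0.0731). Without HM-1 control library 1, the difference was called for 21 members in place of 17, against 49.0% of all genes, and was -0.35 for Sel1l (adjusted p = 0.00025) and 0.32 for Creld2 (adjusted p = 0.00149).

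In tumors no member passed the test between Cd276KO and control. edgeR called 0 of 16 genes in each arm, while 2.20% of 15345 genes rose and 3.18% fell, 5.38% in all. At an unadjusted p under 0.05 there were 3 ATF4 arm genes and 5 chaperone genes, where 25.0% of all genes had one. DESeq2 called 6 members against 13.2% of all genes, and limma voom with sample weights 8 against 20.8%. The groups did not overlap for 5 ATF4 arm genes and 8 chaperone genes, where 34.8% of all genes did not overlap. The median log2 fold change was 0.046 in the ATF4 arm and -0.070 in the chaperone arm, against -0.030 over all genes. In these bulk samples, fewer cells of a type and less RNA per cell cannot be told apart.

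Nupr1 had 16.8, 12.9 and 11.2 CPM in Cd276KO tumors, against 27.1, 25.7 and 39.0 CPM in control tumors, separate groups with a log2 fold change of -1.13 ± 0.26, adjusted p = 0.0575. Slc7a11 had 45.0, 73.5 and 57.4 CPM, against 29.9, 38.5 and 16.4 CPM (1.10 ± 0.30, adjusted p = 0.0838), and Sesn2 had 15.02, 12.9 and 13.7 CPM, against 24.4, 31.3 and 18.04 CPM (-0.78 ± 0.21, adjusted p = 0.0786). Pdia4 had 400.3, 339.7 and 373 CPM, against 266, 258 and 264 CPM (0.54 ± 0.12, adjusted p = 0.0541). These 4 had separate groups without passing the threshold, and without control tumor 3 all 4 were called, against 10.7% of all genes: Nupr1 at -0.87, Slc7a11 at 0.85, Sesn2 at -0.93 and Pdia4 at 0.58. They were named after their values were seen. Atf4 had 438, 331 and 378 CPM in Cd276KO tumors, against 362, 391 and 415 CPM in controls (0.016 ± 0.16, adjusted p = 0.963), and Ddit3 had 21.4, 14.8 and 15.4 CPM, against 15.5, 18.3 and 15.3 CPM (0.12 ± 0.21, adjusted p = 0.763). Hspa5 had 1027, 853 and 957 CPM, against 1090, 1150 and 1050 CPM (-0.17 ± 0.14, adjusted p = 0.486). Xbp1 had 257, 214 and 245 CPM, against 256, 269.6 and 252 CPM (-0.076 ± 0.12, adjusted p = 0.734). The Atf4, Ddit3 and Xbp1 groups overlapped, and the Hspa5 values of Cd276KO tumors lay below those of control tumors.

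Markers of other cell types had different levels in the tumor libraries, and their part in these values was not tested. The summed level of 4 neutrophil genes was 10.5, 5.62 and 9.45 CPM in Cd276KO tumors, against 24.9, 27.0 and 114 CPM in control tumors, and that of 7 macrophage genes was 294, 568 and 460.0 CPM, against 910.4, 626 and 504 CPM. Striated muscle genes (6) summed to 114, 819 and 889.8 CPM in Cd276KO tumors, against 133, 1.64 and 2.24 CPM in control tumors. Fibroblast genes (6) summed to 3235, 5141 and 4503 CPM, against 12521, 4244 and 421 CPM, with control tumor 3 at the lowest level, and 4 keratinocyte genes reached 199.8 CPM in that tumor, against 6.94 to 7.49 CPM in the other 5 tumors. The 7 B and plasma cell genes, a cell type rich in ER chaperones, summed to 0.668 to 1.19 CPM in Cd276KO tumors and 1.25 to 1.74 CPM in control tumors.

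HM-1 tumors were set against cultured HM-1 cells within each genotype. Psat1, Shmt2, Phgdh, Asns, Mthfd2 and Sesn2 fell in tumors of each genotype, and Ddit4, Nupr1 and Ddit3 rose. Among Cd276KO samples, 5 ATF4 arm genes rose and 7 fell, 4 of each at least 2-fold, and among control samples 3 rose and 6 fell, 2 and 5 of them at least 2-fold. In the Cd276KO comparison 41.2% of 14330 genes rose and 34.5% fell, 75.7% in all, with 25.8% and 7.53% beyond 2-fold. The 4 ATF4 arm genes that rose at least 2-fold there were near the share of all genes. In the control comparison 25.3% of 14609 genes rose and 16.6% fell, 41.8% in all, with 21.2% and 5.13% beyond 2-fold. The median of the arm was 0.085 for Cd276KO and 0.099 for control, close to the 0.081 and 0.053 of all genes. Among control samples, 11 members of both arms were called without HM-1 control cell library 1, against 37.2% of all genes, and 15 without control tumor 3, against 46.5%, in place of 14.

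Psat1, phosphoserine aminotransferase, had 110.4, 89.5 and 94.2 CPM in Cd276KO tumors, against 334, 333 and 331 CPM in Cd276KO cells (-1.89 ± 0.098, adjusted p = 5.94e-07), and 132, 124 and 109 CPM in control tumors, against 368, 359.9 and 363 CPM in control cells (-1.72 ± 0.13, adjusted p = 0.000242). The mitochondrial serine hydroxymethyltransferase Shmt2 had 124, 106 and 108 CPM in Cd276KO tumors, against 225, 250.5 and 235 CPM in Cd276KO cells (-1.20 ± 0.092, adjusted p = 4.82e-06), and 114, 109.8 and 78.0 CPM in control tumors, against 242, 256 and 254 CPM in control cells (-1.46 ± 0.16, adjusted p = 0.000913). Phgdh (-0.91 for Cd276KO and -1.04 for control), Asns (-0.81 and -1.07), Mthfd2 (-1.32 and -1.01) and Sesn2 (-0.60 and -0.67) fell as well in tumors of each genotype. For Mthfd2, Cd276KO tumors had 47.7, 41.5 and 38.5 CPM, against 95.9, 97.3 and 98.4 CPM in Cd276KO cells, and for Asns control tumors had 63.3, 75.7 and 54.4 CPM, against 139, 109 and 117 CPM in control cells. All these groups were separate. The control call of Mthfd2 was lost without any 1 HM-1 control cell library (adjusted p from 0.0556 to 0.0695), and that of Sesn2 without any of these or control tumor 1 (0.0529 to 0.0964), under upper-quartile scaling (0.0710) and with a replicate block (0.0625).

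Ddit4 had the largest rise among Cd276KO samples and Nupr1 among control samples. Ddit4, which is also known as a hypoxia and glucocorticoid target, had 179, 138 and 163 CPM in Cd276KO tumors, against 7.54, 10.2 and 8.82 CPM in Cd276KO cells (4.04 ± 0.15, adjusted p = 2.06e-07), and 156, 188 and 128 CPM in control tumors, against 19.7, 19.0 and 17.96 CPM in control cells (2.91 ± 0.18, adjusted p = 0.000123). Nupr1 had 16.8, 12.9 and 11.2 CPM in Cd276KO tumors, against 3.20, 2.82 and 2.63 CPM in Cd276KO cells (2.11 ± 0.20, adjusted p = 1.55e-05), and 27.1, 25.7 and 39.0 CPM in control tumors, against 3.40, 2.76 and 1.94 CPM in control cells (3.36 ± 0.31, adjusted p = 0.00051). Ddit3 had 21.4, 14.8 and 15.4 CPM in Cd276KO tumors, against the 11.1, 9.17 and 10.98 CPM of Cd276KO cells given above (0.59 ± 0.17, adjusted p = 0.0117), and 15.5, 18.3 and 15.3 CPM in control tumors, against 7.997, 7.93 and 6.97 CPM in control cells (0.96 ± 0.19, adjusted p = 0.00623). These 3 rose in tumors of each genotype, and the Cd276KO call of Ddit3 was lost without HM-1 Cd276KO cell library 2 (adjusted p = 0.0592). Trib3 had 38.6, 22.9 and 34.6 CPM in Cd276KO tumors, against 4.92, 5.74 and 5.11 CPM in Cd276KO cells (2.48 ± 0.21, adjusted p = 1.35e-05), and was not called in controls (0.74 ± 0.47, adjusted p = 0.246), where the 3 tumors ranged from 7.92 to 34.9 CPM. The difference between the genotypes was not called (1.71 ± 0.57, adjusted p = 0.167). Vldlr rose in the Cd276KO comparison (1.89 ± 0.092, adjusted p = 4.59e-07) and Ppp1r15a fell in it (-1.04 ± 0.13, adjusted p = 9.63e-05). Atf4 was not called in either, at 0.17 ± 0.11, adjusted p = 0.196 for Cd276KO and -0.055 ± 0.18, adjusted p = 0.832 for control.

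Of the 16 chaperone arm genes, 3 rose and 5 fell in Cd276KO tumors, against 41.2% and 34.5% of all genes, and 4 rose and 1 fell in control tumors, against 25.3% and 16.6%. The 5 that fell in Cd276KO tumors and the 4 that rose in control tumors were near those shares. Xbp1 had 257, 214 and 245 CPM in Cd276KO tumors, against 92.7, 89.1 and 88.1 CPM in Cd276KO cells (1.28 ± 0.087, adjusted p = 2.61e-06), and 256, 269.6 and 252 CPM in control tumors, against 119, 100.1 and 99.2 CPM in control cells (1.14 ± 0.15, adjusted p = 0.00139). Dnajb9, an XBP1 target, had 56.3, 45.7 and 47.0 CPM in Cd276KO tumors, against 28.8, 26.2 and 28.5 CPM in Cd276KO cells (0.71 ± 0.11, adjusted p = 0.000303), and 41.8, 65.6 and 54.7 CPM in control tumors, against 26.3, 24.1 and 24.4 CPM in control cells (0.97 ± 0.19, adjusted p = 0.00694). Both rose in each genotype without overlap. Hyou1 had 235, 221 and 219 CPM in Cd276KO tumors, against 299.7, 311 and 299 CPM in Cd276KO cells (-0.56 ± 0.067, adjusted p = 6.94e-05), and 200.3, 199 and 208 CPM in control tumors, against 212, 269 and 270.2 CPM in control cells (-0.44 ± 0.13, adjusted p = 0.028). Pdia4 had 400.3, 339.7 and 373 CPM in Cd276KO tumors, against 266, 262 and 265 CPM in Cd276KO cells (0.36 ± 0.083, adjusted p = 0.00368), and was called higher among control samples too (0.34). Herpud1, an ER degradation factor, had 74.0, 85.5 and 71.0 CPM in control tumors, against 53.4, 50.8 and 50.4 CPM in control cells. It was called higher among control samples (0.43 ± 0.13, adjusted p = 0.0359) and not called among Cd276KO samples (0.074 ± 0.10, adjusted p = 0.538), without a called difference between genotypes (-0.38 ± 0.16, adjusted p = 0.292). Creld2 had 68.5, 57.9 and 56.4 CPM in Cd276KO tumors, against 78.3, 79.4 and 81.3 CPM in Cd276KO cells (-0.52 ± 0.095, adjusted p = 0.000939), without overlap. Dnajb11 had 72.0, 80.0 and 74.3 CPM, against 88.0, 79.8 and 86.4 CPM (-0.30 ± 0.062, adjusted p = 0.00193), with overlap. Also among Cd276KO samples, Dnajc3 and Sel1l fell, with log2 fold changes of -0.29 and -0.22. Hspa5 was not called, at -0.089 ± 0.096, adjusted p = 0.422 for Cd276KO and 0.14 ± 0.15, adjusted p = 0.507 for control. Upper-quartile scaling moved the median of all genes by 0.17 (Cd276KO) and 0.14 (control) on the log2 scale, and the calls of Dnajb11, Dnajc3 and Sel1l were lost under it (adjusted p = 0.0834, 0.0920 and 0.427), as was that of Sel1l in a fit over all 18 libraries (0.0911). The control call of Pdia4 was lost without any 1 of the 6 libraries (adjusted p from 0.0566 to 0.180), and those of Herpud1 (0.0644 to 0.157) and Hyou1 (0.0744 to 0.103) without HM-1 control cell library 2 or 3 or control tumor 1 or 2. With a replicate block all 3 control calls were lost, for Pdia4 (0.142), Herpud1 (0.103) and Hyou1 (0.0816), with no filter those of Pdia4 (0.411) and Herpud1 (0.227), and under upper-quartile scaling that of Hyou1 (0.0961).

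**Figure D4:**
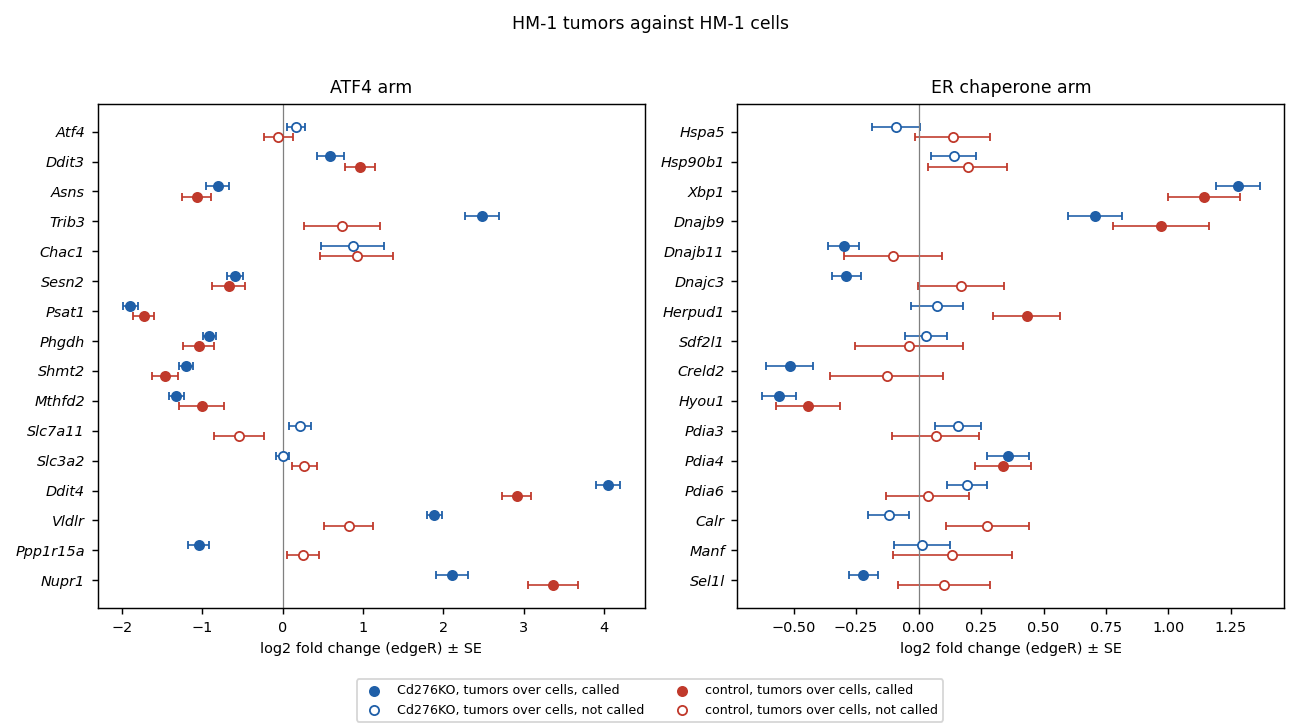
Log2 fold change of HM-1 tumors over HM-1 cells with its SE (horizontal axes) for each gene of both arms, among Cd276KO and among control samples, with filled points for called genes. Ddit4, Nupr1 and Xbp1 lie right of 0 and Psat1, Shmt2, Phgdh, Asns and Mthfd2 left of 0 in both.

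Tumors also hold host cells that cultures lack. All 7 macrophage genes were detected in every tumor, at a summed 294 to 568 CPM in Cd276KO tumors and 504 to 910.4 CPM in control tumors, against 55.1 to 60.5 CPM in Cd276KO cells and 21.2 to 26.1 CPM in control cells, where C1qa was at 0 in all 6 libraries. Their part in the tumor levels was not tested. Whether the knockout effect differed between tumors and cells was tested as an interaction over 12 libraries. Of 15623 genes 1.72% were higher, 1.12% lower and 2.84% called in all, and among the members 1 ATF4 arm gene was higher, 1 lower, and 0 chaperone genes were called; 5 ATF4 arm genes and 3 chaperone genes had an unadjusted p under 0.05, as 14.6% of all genes did, and DESeq2 called 5 members, against 5.57% of all genes. Ddit4, with 0.071 in tumors against -1.05 in cells, differed by 1.11 ± 0.23, adjusted p = 0.0246, and Ppp1r15a, with -0.55 in tumors against 0.76 in cells, by -1.31 ± 0.23, adjusted p = 0.011. Neither call held when each library was left out in turn. Ddit4 was lost without control cell library 2 or 3, Cd276KO cell library 1 or 3 or Cd276KO tumor 1 or 3 (adjusted p from 0.0519 to 0.0764) and with a replicate block (0.0514), and Ppp1r15a without control cell library 2 (0.0775) or Cd276KO cell library 1 (0.0722). Without control tumor 3 there were 5 calls, against 5.68% of all genes, and with a replicate block 1, where 313 of all genes were called.

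Control ID8 cells had higher mRNA of most members than control HM-1 cells. In the ATF4 arm 12 of 16 genes were higher, 9 of them at least 2-fold, and 2 were lower, and in the chaperone arm 9 were higher and 0 lower. Of 13732 genes, 28.8% were higher, 15.3% at least 2-fold, and 29.6% lower, 58.3% in all. Median log2 fold changes were 1.12 and 0.41, against -0.0089 over all genes. Line, strain and culture medium cannot be told apart in this comparison.

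Chac1 had 52.8, 54.8 and 58.5 CPM in ID8 control cells, against 3.12, 2.56 and 2.45 CPM in HM-1 control cells (4.32 ± 0.14, adjusted p = 1.07e-07). Nupr1 had 39.9, 41.3 and 39.4 CPM, against 3.40, 2.76 and 1.94 CPM (3.87 ± 0.19, adjusted p = 8.77e-07), and Trib3 had 83.7, 83.5 and 84.4 CPM, against 11.97, 10.3 and 10.6 CPM (2.90 ± 0.11, adjusted p = 1.88e-07). These are genes that fell in Cd276KO ID8 cells, and their Cd276KO ID8 levels, 21.6, 20.9 and 22.6 CPM for Chac1 and 29.9, 29.2 and 31.4 CPM for Trib3, still lay above those of HM-1 control cells. Atf4 had 789.8, 823 and 805 CPM in ID8 control cells, against 433, 332 and 329 CPM in HM-1 control cells (1.10 ± 0.13, adjusted p = 0.00021), and Ddit3 was higher by 1.63 ± 0.11, adjusted p = 4.35e-06. Ppp1r15a had 17.1, 14.5 and 16.1 CPM, against 24.2, 21.8 and 22.4 CPM (-0.56 ± 0.11, adjusted p = 0.00267), and Vldlr had 41.0, 42.8 and 38.2 CPM, against 40.2, 58.0 and 59.1 CPM (-0.41 ± 0.14, adjusted p = 0.0413), both lower in ID8. The Vldlr groups overlapped and its call was lost without any 1 of 5 libraries, HM-1 control 2 and 3 and each ID8 control (adjusted p from 0.0944 to 0.139), in a fit over all 18 libraries (0.134) and with a replicate block (0.0520). In the chaperone arm, Calr had 1439, 1388 and 1433 CPM in ID8 control cells, against 593, 538 and 527 CPM in HM-1 control cells (1.32 ± 0.097, adjusted p = 9.68e-06). Herpud1 had 106, 110.1 and 112 CPM, against 53.4, 50.8 and 50.4 CPM (1.05 ± 0.086, adjusted p = 1.83e-05), and Xbp1 had 214, 230.2 and 222 CPM, against 119, 100.1 and 99.2 CPM (1.03 ± 0.11, adjusted p = 8.6e-05). Hspa5 had 1731, 1796 and 1696 CPM, against 994, 856 and 854 CPM (0.91 ± 0.10, adjusted p = 0.000145). The groups of these 4 chaperone genes were separate. Without HM-1 control library 1, 30 members were called in place of 23, against 75.3% of all genes.

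**Figure D5:**
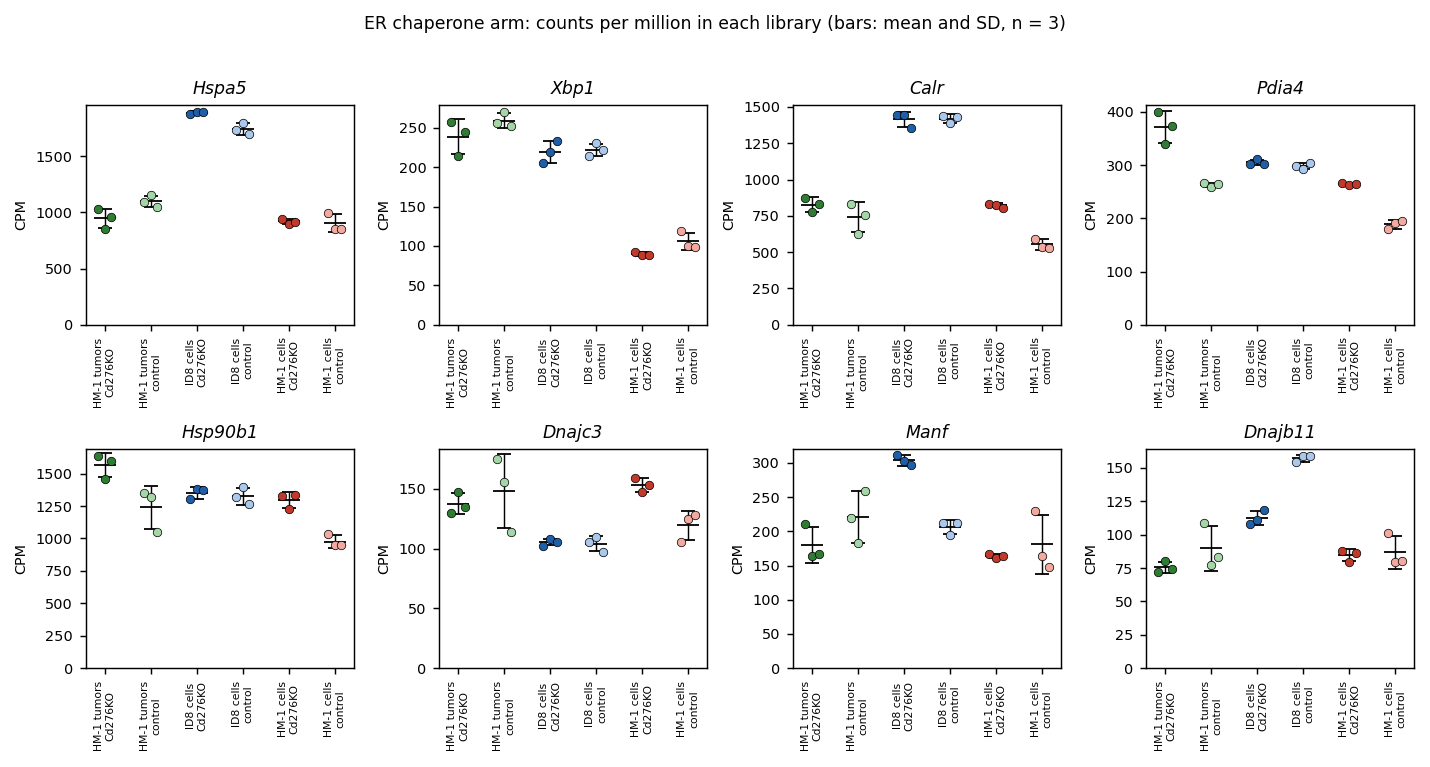
CPM (vertical axes, from 0) of 8 chaperone arm genes in each library of the 6 groups, with points for libraries and bars for mean and SD (n = 3). Calr, Pdia4, Hsp90b1 and Dnajc3 were higher in Cd276KO than in control HM-1 cells, and Hspa5, Xbp1 and Calr were higher in ID8 controls than in HM-1 controls.

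Other genes of the pathway, from 4 lists set apart from the members, are given by count. Of all genes tested, 29.4% rose and 31.3% fell in Cd276KO ID8 cells, 11.6% rose and 16.1% fell in Cd276KO HM-1 cells, and 2.20% rose and 3.18% fell in Cd276KO tumors. Of 16 stress sensors and regulators, 3 rose and 9 fell in Cd276KO ID8 cells, 3 rose and 1 fell in Cd276KO HM-1 cells and 0 rose and 1 fell in Cd276KO tumors. Atf5, a factor translated like ATF4, had 31.5, 32.2 and 33.0 CPM in Cd276KO ID8 cells, against 69.8, 63.2 and 79.1 CPM in controls (-1.06 ± 0.077, adjusted p = 1.03e-10), and Mbtps2, a protease that cleaves ATF6, fell there too (-0.77 ± 0.067, adjusted p = 9.19e-10). Atf6, the ER-anchored sensor, fell in HM-1 samples, with 126, 123 and 124 CPM in Cd276KO cells, against 166, 287 and 300.3 CPM in control cells (-0.97 ± 0.21, adjusted p = 0.0148), and 78.8, 98.0 and 85.5 CPM in Cd276KO tumors, against 177, 202 and 216 CPM in control tumors (-1.15 ± 0.13, adjusted p = 0.0206). The HM-1 cell value was -1.19 without control library 1 (adjusted p = 6.53e-27), and both calls were lost without any 1 Cd276KO library of the comparison, in cells (adjusted p from 0.0652 to 0.0700) and in tumors (0.0812 to 0.143). Without Cd276KO tumor 1, 2 or 3, only 1, 0 and 0 genes of all tested were called between tumor genotypes. Losing a tumor call in these omissions therefore does not single out a gene. Between HM-1 tumors and cells, 2 of the 16 rose and 13 fell among Cd276KO samples, against 41.2% and 34.5% of all genes, and 1 rose and 3 fell among control samples, against 25.3% and 16.6%. Atf3, a stress factor downstream of ATF4, rose in Cd276KO HM-1 cells, with 6.59, 4.66 and 4.59 CPM, against 2.95, 3.08 and 2.75 CPM in controls (0.89 ± 0.18, adjusted p = 0.0115). Of 13 tRNA synthetase and tRNA export genes, 1 rose and 6 fell in ID8 cells, 3 rose and 2 fell in HM-1 cells and 0 rose and 1 fell in tumors. Cars (-0.41 ± 0.055, adjusted p = 8.7e-07) and Sars (-0.37 ± 0.057, adjusted p = 7.87e-06) led the falls in ID8 cells. In HM-1 cells Aars rose (0.52 ± 0.075, adjusted p = 0.00317) and Tars fell (-0.45 ± 0.067, adjusted p = 0.00365), and Tars fell in Cd276KO tumors as well (-0.61 ± 0.13, adjusted p = 0.0474), a call lost without any 1 library other than control tumor 3 (adjusted p from 0.0950 to 0.228). Between tumors and cells, 12 of the 13 fell among Cd276KO samples and 9 among control samples, with 0 higher in either, where 34.5% and 16.6% of all genes fell.

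Of the other amino acid and folate genes, 3 of 16 tested rose and 10 fell in ID8 cells, 4 of 16 rose and 3 fell in HM-1 cells and 0 of 18 rose and 1 fell in tumors, against the shares of all genes given above. Between HM-1 tumors and cells, 4 of 17 rose and 11 fell among Cd276KO samples and 2 of 17 rose and 6 fell among control samples. Of all genes, 41.2% rose and 34.5% fell among Cd276KO samples, and 25.3% rose and 16.6% fell among control samples. Cth, cystathionine gamma-lyase of the cysteine synthesis pathway, was nearly absent from Cd276KO HM-1 samples: the 3 Cd276KO cell libraries held 2 counts in all, against 476 in control cells, and the Cd276KO tumors 1 count, against 259 in control tumors. Corrected for library totals, the control over Cd276KO ratio was 214 in cells (95% exact interval 58.8 to 1770, counting error only) and 234 in tumors (41.5 to 9260). The tumor call was lost without any 1 Cd276KO tumor (adjusted p from 0.0877 to 0.137). Those omissions left 1, 0 and 0 genes called of all tested, so a tumor call lost in them does not single out a gene. Slc7a5, the leucine transporter LAT1, rose in Cd276KO HM-1 cells, with 281, 293 and 269.6 CPM, against 165, 181 and 190.4 CPM in controls (0.69 ± 0.078, adjusted p = 0.00115). In ID8 cells Fgf21, a stress hormone, had 5 counts in Cd276KO, against 89 in controls, a control over Cd276KO ratio of 16.5 (6.80 to 52.0). Aldh1l2, a mitochondrial folate enzyme, had 3.40, 3.60 and 3.47 CPM in Cd276KO ID8 cells, against 16.1, 13.0 and 12.5 CPM in controls (-1.91 ± 0.12, adjusted p = 5.19e-12). Of the other ER folding and degradation genes, 6 of 24 rose and 11 fell in ID8 cells, 3 of 23 rose and 4 fell in HM-1 cells and 1 of 23 rose in tumors. Of all genes, 29.4% rose and 31.3% fell in ID8 cells, 11.6% and 16.1% in HM-1 cells and 2.20% and 3.18% in tumors. The rises in ID8 cells and both counts in HM-1 cells were near those shares. Between HM-1 tumors and cells, 9 of 23 rose and 10 fell among Cd276KO samples and 4 rose and 4 fell among control samples. Of all genes, 41.2% and 34.5% did so among Cd276KO samples and 25.3% and 16.6% among control samples. The 9 that rose and the 4 control genes that fell were near those shares. Fkbp14, a prolyl isomerase, and Ero1l, the oxidase that recharges disulfide isomerases, fell in ID8 cells (-0.91 ± 0.078, adjusted p = 7.58e-10 for Fkbp14 and -0.64 ± 0.061, adjusted p = 4.36e-09 for Ero1l), and Erp44 (-0.51 ± 0.12, adjusted p = 0.0238) and Derl1 (-0.48 ± 0.076, adjusted p = 0.00461) fell in HM-1 cells. The Erp44 call was lost without any 1 Cd276KO library (adjusted p from 0.0653 to 0.104). Dnajc10, an ER disulfide reductase, had 949, 775 and 1016 CPM in Cd276KO tumors, against 326, 401 and 222 CPM in control tumors (1.58 ± 0.22, adjusted p = 0.0253), a call lost without any 1 Cd276KO tumor or control tumor 1 (adjusted p from 0.0504 to 0.154).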

How the data were processed

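RNA-seq gene counts of 18 libraries, 6 groups of 3, were analysed. Per the submitters' processing notes, reads were handled with Trim Galore, STAR and HTSeq on GRCm38 (mm10), and the deposited values are raw counts per gene, with tool versions, the strand setting and the annotation release not given in the sources used here. The labels call the libraries biological replicates without saying whether they came from separate cultures, mice or clones, so p-values measure only the spread between these samples. Library totals ranged from 17349082 to 30959773 counts.

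Each comparison was fitted over its 6 libraries, and each difference of knockout effects over 12, with TMM scaling, the filterByExpr filter and the robust quasi-likelihood test of edgeR 4.0.16 (R 4.3.3). P-values were adjusted over all genes tested by Benjamini-Hochberg, and called means an adjusted p under 0.05. Standard errors were back-calculated as the absolute log2 fold change over the root of F. CPM are per library total, and TPM use exonic lengths of GENCODE annotation on GRCm38. The scripts were tested on simulated data. The members and lists were chosen with earlier results of these data known. Values in every sample are given for Atf4, Ddit3, Hspa5 and Xbp1. In each comparison of 2 groups they are given, for each arm, for the 3 highest members called higher and the 3 lowest called lower, or for all where fewer were called. For the differences of effects the 2 highest and 2 lowest called members are named, and for other lists the called genes with the largest changes. Not all of the latter 2 sets have values in every sample. Promoter windows were printed for the 2 members of each arm with the largest called changes over the Cd276KO comparisons, where RefSeq had one (Manf had none). Alternatives were DESeq2 1.42.0, RLE and upper-quartile scaling, no filter, a fit over all 18 libraries, a replicate block, limma 3.58.1 voom with sample weights, and omission of each library in turn.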

Additional observations from a re-analysis of the deposited data

Results flagged for a closer look

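For 19 results the knockout effect differed between cell lines or between tumors and cells, by edgeR's quasi-likelihood test of the difference itself over 12 libraries with an adjusted p under 0.05. All values here are differences of log2 fold changes. Between ID8 and HM-1 cells (ID8 minus HM-1), the ATF4 arm genes were Ddit3 at -1.71, Vldlr at -1.66, Nupr1 at -1.62, Chac1 at -1.22, Ppp1r15a at -1.13, Slc7a11 at -1.07, Mthfd2 at -0.65, Slc3a2 at -0.45 and Trib3 at -0.40. In the chaperone arm, Manf at 0.73 and Creld2 at 0.48 were higher in this difference, and Calr at -0.55, Sel1l at -0.53, Pdia4 at -0.43, Dnajb11 at -0.42, Hsp90b1 at -0.36 and Dnajc3 at -0.31 were lower. Of all genes 40.4% were called. Dnajc3 was lost in 6 of 12 omissions and 2 other settings, Dnajb11 in 2 omissions and 2 other settings, and Hsp90b1 in 2 other settings. Chac1 (adjusted p = 0.108), Mthfd2 (0.0936) and Slc3a2 (0.0621) were lost in the fit over all 18 libraries. Losses of Trib3, Creld2 and Sel1l are given above. Line, strain and culture medium cannot be told apart in these differences. Between HM-1 tumors and HM-1 cells (tumors minus cells), the 2 were Ddit4 at 1.11 and Ppp1r15a at -1.31.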

How the results depend on the processing

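Of 105 called member results 0 changed sign under any alternative, and of 151 results that were not called 45 did. Results are called for lying away from 0 relative to their SE, so sign changes were unlikely among them from the start. Calls that held under all alternatives numbered 6 of 11 in HM-1 cells, 11 of 18 in ID8 cells, 9 of 14 for control tumors against cells, 16 of 20 for Cd276KO tumors against cells, 21 of 23 for ID8 against HM-1 cells, 0 of 2 for the tumor and cell difference and 8 of 17 for the line difference. limma voom called 23 members in HM-1 cells, 8 between tumor genotypes and 16 for the tumor and cell difference. Over all genes it called 7577, 3194 and 3077, in place of 3452, 826 and 443. A fit over all 18 libraries called 11 in ID8 cells, 9 between tumor genotypes, 4 for the tumor and cell difference and 9 for the line difference. Over all genes that fit called 4260, 4001, 848 and 4104, in place of 7849, 826, 443 and 5747. DESeq2 called 6 between tumor genotypes and 5 for the tumor and cell difference, and upper-quartile scaling and no filter each called 1 between tumor genotypes. Over all genes DESeq2 called 2270 and 885, and between tumor genotypes upper-quartile scaling called 862 and no filter 963. The causes were not tested. With 1 library omitted, calls ranged from 7 to 25 in HM-1 cells, 16 to 19 in ID8 cells, 0 to 4 between tumor genotypes, 9 to 15 for control tumors against cells, 19 to 25 for Cd276KO tumors against cells, 21 to 30 for ID8 against HM-1 cells, 0 to 5 for the tumor and cell difference and 13 to 21 for the line difference. Over all genes, in the same order, the first ranges were 1725 to 7491, 7115 to 7877, 0 to 1685 and 4336 to 7072. The others were 10113 to 11839, 6882 to 10604, 225 to 913 and 4941 to 7143. Signs that turned were all of results not called. For Atf4, omissions gave -0.0007 to 0.0404 in ID8 cells, -0.1210 to 0.1300 between tumor genotypes and -0.1644 to 0.1081 for control tumors against cells, where upper-quartile scaling gave 0.0810 and voom 0.0899. Between tumor genotypes omissions gave -0.1000 to 0.2344 for Ddit3, with -0.0811 under voom, and -0.1571 to 0.0155 for Xbp1. Upper-quartile scaling gave 0.0778 for Hspa5 in Cd276KO tumors against cells.

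Same-numbered libraries did not deviate together in every pair (correlations from -0.60 to 0.29). Between Cd276KO and control ID8 cells all were positive, at 0.15, 0.037 and 0.15. Some groups held a library far from the others, so these values cannot settle whether the numbers pair the samples. With a replicate block, 9 members were called in HM-1 cells, 19 in ID8 cells, 0 between tumor genotypes, 11 for control tumors against cells, 20 for Cd276KO tumors against cells, 22 for ID8 against HM-1 cells, 1 for the tumor and cell difference and 17 for the line difference. Over all genes, in the same order, the block called 2469, 8329, 0, 4694, 10808, 7638, 313 and 5571. The main fits called 3452, 7849, 826, 6107, 10841, 8010, 443 and 5747.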
